A study of Mus musculus with 12 samples.

Results

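The cell cycle genes described here are 50 genes that run or mark the division cycle, taken by their symbols from a fixed list and matched to the rows of the deposited count table by gene name. All 50 symbols matched 1 row each, out of 55487 rows, and all 50 were among the 15905 genes with enough counts to test. They fall into 9 role groups: 10 cyclins, inhibitors and regulators of G1, 10 proteins of the replication origin, helicase and clamp, 4 enzymes of nucleotide supply, 2 chromatin proteins of the replication fork, 7 mitotic cyclins and kinases, 4 proteins of the spindle checkpoint and the anaphase-promoting complex, 7 proteins of the spindle and of cytokinesis, 3 centromere proteins and 3 chromosome proteins.

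A cell enters the cycle when D-type and E-type cyclins, bound to their kinases, inactivate the retinoblastoma protein RB1 and free E2F factors, which drive genes of DNA replication. Genes of mitosis are switched on later, mainly through CHR promoter elements that a repressive DREAM complex occupies in resting cells. Naive T cells rest outside the cycle, while effector and memory T cells contain more cells that have divided recently.

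The libraries are bulk RNA-seq of CD4+ T cells sorted directly from spleen and peripheral lymph nodes of mice, with no culture step in the labels. WT stands for wild-type mice, and KO for mice lacking Rinl, the gene of a RAS and RAB interactor-like protein. Naive cells were sorted as CD44lo and effector cells as CD44hi, among other surface marks, which gave 4 groups of 3 libraries: WT naive (libraries 1 to 3), WT effector (4 to 6), KO naive (7 to 9) and KO effector (10 to 12). The labels read here state no sex, age or strain background and do not say how the KO allele was made. Nor do they say whether the 3 libraries of a group represent 3 mice, so p-values measure the spread between these libraries alone, which may be technical.

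Library depth ranged from 11606251 to 24320247 counts. Levels are given as CPM, counts scaled to library size after TMM adjustment. Rinl, the targeted gene, averaged 294 CPM in WT naive, 33.0 in KO naive, 450.0 in WT effector and 47.6 in KO effector libraries, in keeping with the genotype labels. The 7 defining CD4+ T cell markers summed to between 4280.4 and 4719 CPM in every library, and Cd44 averaged 18.8 CPM in WT naive and 257 in WT effector libraries. Cd8a stayed at or under 0.408 CPM in the group means. Together with Cd8b1, however, the 2 CD8 markers summed to 19.5 to 20.8 CPM in WT naive and 19.8 to 21.8 in KO naive libraries. In effector libraries the sums were 5.52 to 6.70 CPM in WT and 7.19 to 8.04 in KO. The 1 CD8 marker tested was called lower in effector cells of both genotypes. In these bulk samples, fewer cells of a type and less RNA per cell cannot be told apart.

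Effector cells carried more transcript of most of the 50 cell cycle genes than naive cells did, in WT and in KO mice alike. Among the largest differences, Mki67, which encodes the proliferation antigen Ki-67, was 29.6-fold higher in WT effector cells, and Tk1, a nucleotide salvage kinase of S phase, 15.7-fold. The abundant G1 cyclin Ccnd2, the CDK inhibitor Cdkn1b, the pocket protein gene Rb1 and the replication clamp gene Pcna stood at nearly the same level in both cell types. Stmn1, which encodes a microtubule-destabilising protein, went the other way and fell by 1.11 on the log2 scale in WT effector cells. Loss of Rinl moved 0 of the 50 genes past the test in naive cells and 1 in effector cells, Hmgb2, a chromatin protein gene. Among all genes tested, 1.18% passed in naive and 3.16% in effector cells, so counts this small among 50 genes are near those shares.

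In WT cells, 37 of the 50 genes were higher in effector than in naive libraries and 4 were lower (edgeR quasi-likelihood test, Benjamini-Hochberg adjusted p under 0.05 over all genes tested). Among all 15905 genes tested, 30.2% were called higher and 25.9% lower in this comparison, 56.2% in either direction. Differences are log2 fold changes, given with their standard error after the ± sign unless marked SD. The median log2 difference was 1.05 over the 50 genes and 0.0064 over all genes tested. In KO cells, 37 of the 50 were higher and 4 lower, beside 31.6% and 26.8% of all genes, with a median of 1.15 beside 0.0085, and 58.4% of all genes were called in either direction. All effector libraries lay above all naive libraries for 37 of the 50 genes in WT and 36 in KO, beside 32.4% and 34.0% of all genes, and all below for 5 and 4, beside 29.1% and 29.9% (either way, 61.5% and 63.9% of all genes). The calls were shared by 35 higher and 4 lower genes. Of the 50, 42 would have passed the filter on low counts with the naive libraries alone, and 29 of those 42 were called higher in WT and 29 in KO. The other 8 genes (Cdkn1a, Ccna2, Ccnb1, Aurkb, Ube2c, Bub1, Nusap1 and Cenpf) passed only through their effector libraries, so their calls in this direction carry no separate weight.

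**Figure D1:**
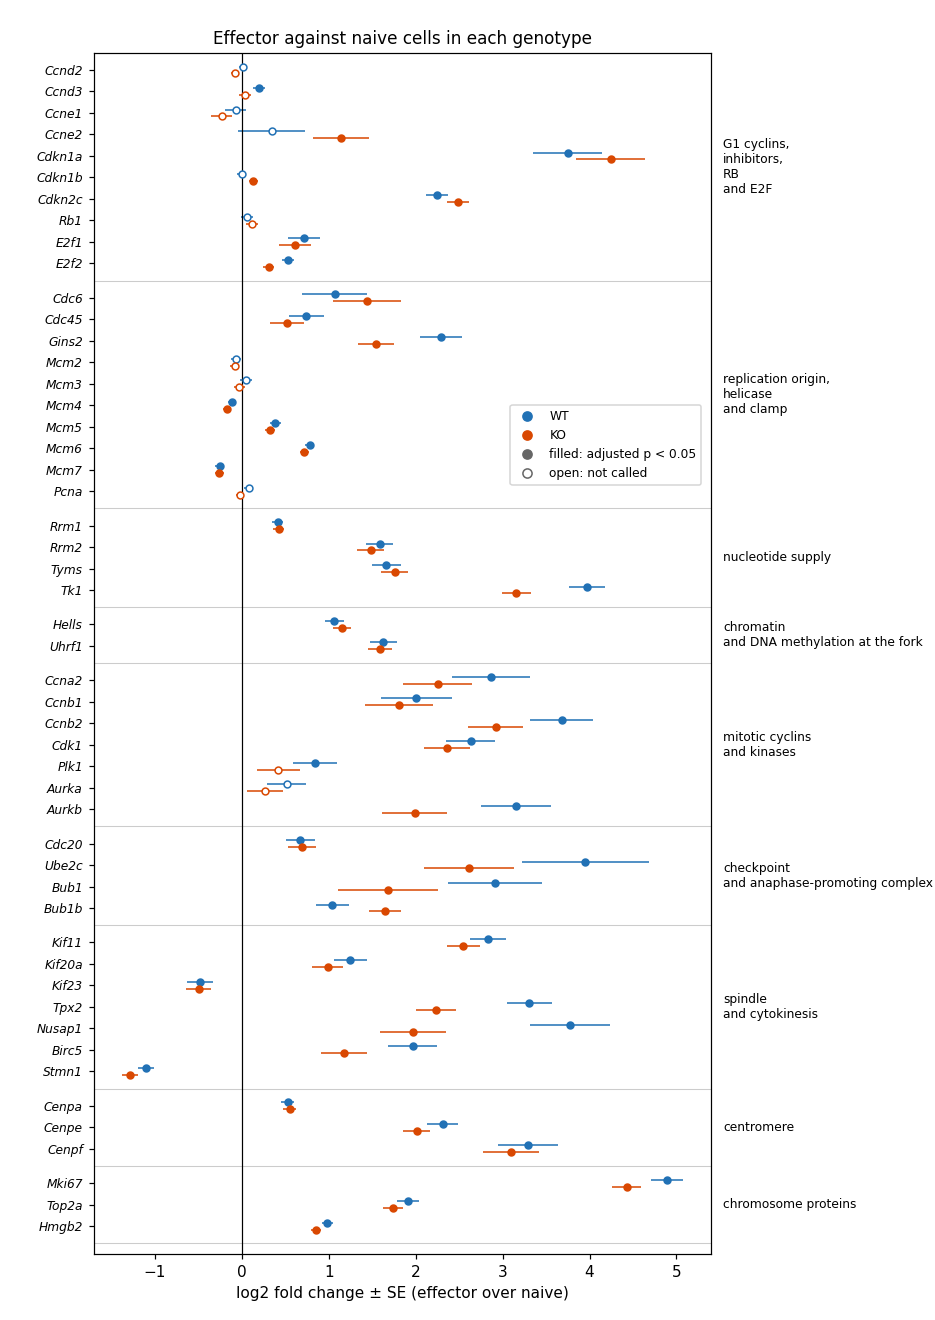
Log2 fold change of effector over naive cells for each of the 50 cell cycle genes (horizontal axis, with its SE as a bar), in WT (blue) and KO (orange), grouped by role. Filled points passed the edgeR test. Most points lie to the right of 0 and Mki67 is farthest right in both genotypes, while Stmn1, Kif23, Mcm7 and Mcm4 lie to the left.

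Promoters are shown for 7 of the genes because the factors named above act through known short sequences. RefSeq start sites on GRCm38.p6 gave 46 promoters for 40 of the 50 genes, and the 250 bases before each start were searched on both strands. Capitals mark CHR-type letters (TTTGAA or TTCGAA, here TTCAAA where the match is on the other strand) and E2F-type letters (TTTGGCGC, TTTCCCGC, TTTCGCGC or TTTGCGCG). Each run is the 150 bases that end just before the start, 5′ to 3′ on the gene's strand. Replication genes that carry E2F-type letters are represented by Mcm6 (chr1:128359706-128359855, minus strand) and Hells (chr19:38930840-38930989, plus strand). Mitotic genes with CHR-type letters are represented by Cdk1 (chr10:69352913-69353062, minus strand), which has both kinds, Ube2c (chr2:164769779-164769928, plus strand) and Kif11 (chr19:37376232-37376381, plus strand). Hmgb2 (chr8:57511693-57511842, plus strand) is the gene that differed between KO and WT, and E2f2 (chr4:136180632-136180781, plus strand; a start inside the annotated gene) is the E2F gene with the higher level. The runs of Hells, Cdk1 and Ube2c also end inside the annotated gene. The capitals of Hells and Ube2c and the last TTTGAA of Cdk1 lie within it.
Mcm6: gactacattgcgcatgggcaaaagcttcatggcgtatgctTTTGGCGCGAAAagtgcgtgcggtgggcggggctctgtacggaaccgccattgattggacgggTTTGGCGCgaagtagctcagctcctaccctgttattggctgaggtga
Hells: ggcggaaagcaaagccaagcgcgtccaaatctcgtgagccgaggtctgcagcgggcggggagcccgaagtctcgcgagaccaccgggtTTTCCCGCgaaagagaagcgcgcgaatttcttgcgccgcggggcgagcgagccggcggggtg
Cdk1: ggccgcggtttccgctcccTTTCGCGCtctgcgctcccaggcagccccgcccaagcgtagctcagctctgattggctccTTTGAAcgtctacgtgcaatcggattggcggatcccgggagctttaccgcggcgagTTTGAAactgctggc
Ube2c: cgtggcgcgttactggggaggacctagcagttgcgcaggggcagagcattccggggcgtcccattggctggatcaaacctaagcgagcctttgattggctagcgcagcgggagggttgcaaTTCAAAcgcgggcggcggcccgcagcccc
Kif11: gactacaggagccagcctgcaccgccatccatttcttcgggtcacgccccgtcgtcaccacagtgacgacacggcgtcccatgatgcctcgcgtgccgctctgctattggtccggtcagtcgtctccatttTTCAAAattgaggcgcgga
Hmgb2: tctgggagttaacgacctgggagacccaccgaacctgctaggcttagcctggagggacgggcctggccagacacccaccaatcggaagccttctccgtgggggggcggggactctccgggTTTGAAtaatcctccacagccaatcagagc
E2f2: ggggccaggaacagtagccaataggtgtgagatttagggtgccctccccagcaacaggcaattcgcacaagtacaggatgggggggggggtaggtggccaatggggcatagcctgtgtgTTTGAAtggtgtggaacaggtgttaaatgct
In Mcm6 the first block of capitals is an overlap of TTTGGCGC with TTTCGCGC read on the other strand. E2F-type letters stood in 7 of the 46 promoters (15.2%) and in 1.79% of the 32851 RefSeq promoters searched in the same way. CHR-type letters stood in 13 of the 46 (28.3%) beside 17.1% of all, and the letters CCAAT in 33 of 46 (71.7%) beside 33.8%. Of the 19 genes of the 5 mitotic role groups with a promoter, 9 carried CHR-type and 1 E2F-type letters, and of the 21 other genes 4 carried CHR-type and 6 E2F-type letters. Between effector and naive WT cells, the median log2 difference was 1.04 for the 13 genes with CHR-type letters and 1.06 for the 27 without, and 1.06 for the 7 genes with E2F-type letters and 1.04 for the 33 without. It was 0.81 for the 30 genes with CCAAT and 1.81 for the 10 without, and no test was made of these medians. A match says only that the letters are present.

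Among the G1 genes, the D-type cyclins Ccnd2 and Ccnd3 were already abundant in naive cells, and the E-type cyclins were not. Ccnd2, the D-type cyclin at the highest level of the set (chr6:127125162-127152193, GRCm38, minus strand), stood at 647, 642 and 629 CPM in the WT naive libraries, 676, 729.7 and 701 in KO naive, 634, 653 and 645 in WT effector and 673, 682 and 635 in KO effector. All 12 libraries lay between 629 and 729.7 CPM, and the log2 difference between effector and naive cells was 0.01 ± 0.043 in WT and -0.08 ± 0.043 in KO (edgeR adjusted p = 0.862 and 0.113). Without library 7, Ccnd2 was called lower in KO effector cells, with a log2 difference of -0.12 (edgeR adjusted p = 0.0335). Ccnd3, a further D-type cyclin needed in lymphocytes, stood at 187, 188 and 173 CPM in the WT naive libraries, 173, 176 and 175 in KO naive, 179, 229 and 222 in WT effector and 174, 187 and 176 in KO effector. WT effector libraries 5 and 6 were above all others and library 4 lay among the naive values. Ccnd3 was called higher in WT effector cells by 0.20 ± 0.068 on the log2 scale (edgeR adjusted p = 0.0209), although the groups overlapped and the call was lost without library 3, 5 or 6 and in a fit of the WT groups alone. In KO the difference was 0.03 ± 0.068 (edgeR adjusted p = 0.687). The E-type cyclins Ccne1 and Ccne2, which bind CDK2 at the entry to S phase, averaged 7.54 ± 0.222 and 0.603 ± 0.137 CPM (SD, n = 3) in WT naive cells, and 7.17 ± 0.175 and 0.727 ± 0.324 CPM in WT effector cells. Neither passed in WT, and Ccne2 was called higher in KO effector cells by 1.14 ± 0.32 on the log2 scale (edgeR adjusted p = 0.00429).

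The 3 CDK inhibitor genes of the set differed from each other. Cdkn2c, whose product p18 blocks CDK4 and CDK6 (chr4:109660876-109667189, minus strand), stood at 3.42, 3.17 and 3.15 CPM in the WT naive libraries, 2.46, 2.81 and 2.36 in KO naive, 17.3, 15.6 and 13.6 in WT effector and 13.3, 14.8 and 14.99 in KO effector. Every effector library was far above every naive library, by 2.25 ± 0.13 on the log2 scale in WT and 2.49 ± 0.13 in KO (edgeR adjusted p = 2.81e-13 and 2.79e-14). Cdkn1a, whose product p21 is a target of p53, stood at 0.158, 0.215 and 0.249 CPM in the WT naive libraries, 0.130, 0.128 and 0.154 in KO naive, 1.66, 3.28 and 3.50 in WT effector and 2.09, 3.27 and 2.68 in KO effector. The naive values rest on 3 or 4 counts in each of the 6 libraries. Cdkn1a passed the filter on low counts only through its effector libraries, so its calls in this direction carry no separate weight. The effector libraries did not overlap with the naive ones, and the fitted log2 difference was 3.75 ± 0.40 in WT and 4.24 ± 0.40 in KO (edgeR adjusted p = 1.88e-08 and 1.89e-09). Cdkn1b, whose product p27 restrains cyclin E kinase in resting T cells, was the most abundant inhibitor at 225, 229 and 248 CPM in the WT naive libraries, 195, 208 and 213 in KO naive, 232, 233 and 235 in WT effector and 227, 236 and 212 in KO effector. The WT groups overlapped, with a log2 difference of -0.0019 ± 0.049 (edgeR adjusted p = 0.979), and KO effector cells were called higher by 0.13 ± 0.049 (edgeR adjusted p = 0.0219), a call lost without library 7, 8 or 11 and with the FPKM values.

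Rb1, which encodes the pocket protein that holds E2F factors inactive, stood at 68.9, 58.6 and 62.2 CPM in the WT naive libraries, 57.2, 62.0 and 61.4 in KO naive, 68.9, 63.0 and 65.9 in WT effector and 71.6, 62.4 and 61.4 in KO effector. The groups overlapped throughout, with a log2 difference of 0.06 ± 0.066 in WT and 0.12 ± 0.065 in KO (edgeR adjusted p = 0.461 and 0.132); Rb1 shares its locus with Lpar6 and Rcbtb2 on the opposite strand. E2f2, an activator E2F expressed in lymphocytes (chr4:136172394-136196057, plus strand), stood at 48.8, 42.6 and 45.4 CPM in the WT naive libraries, 45.4, 45.4 and 44.2 in KO naive, 61.4, 61.1 and 74.5 in WT effector and 53.3, 56.5 and 57.1 in KO effector. All effector libraries lay above all naive ones, by 0.53 ± 0.069 on the log2 scale in WT and 0.31 ± 0.068 in KO (edgeR adjusted p = 6.43e-07 and 0.000491). E2f1, the founding activator E2F, was lower in level and called higher in effector cells as well, by 0.71 ± 0.19 in WT and 0.61 ± 0.18 in KO. Of the 10 G1 genes, 5 were higher in WT effector cells (Ccnd3, Cdkn1a, Cdkn2c, E2f1 and E2f2) and 6 in KO effector cells, and the others did not pass. Among all genes tested, 30.2% were called higher in WT and 31.6% in KO.

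**Figure D2:**
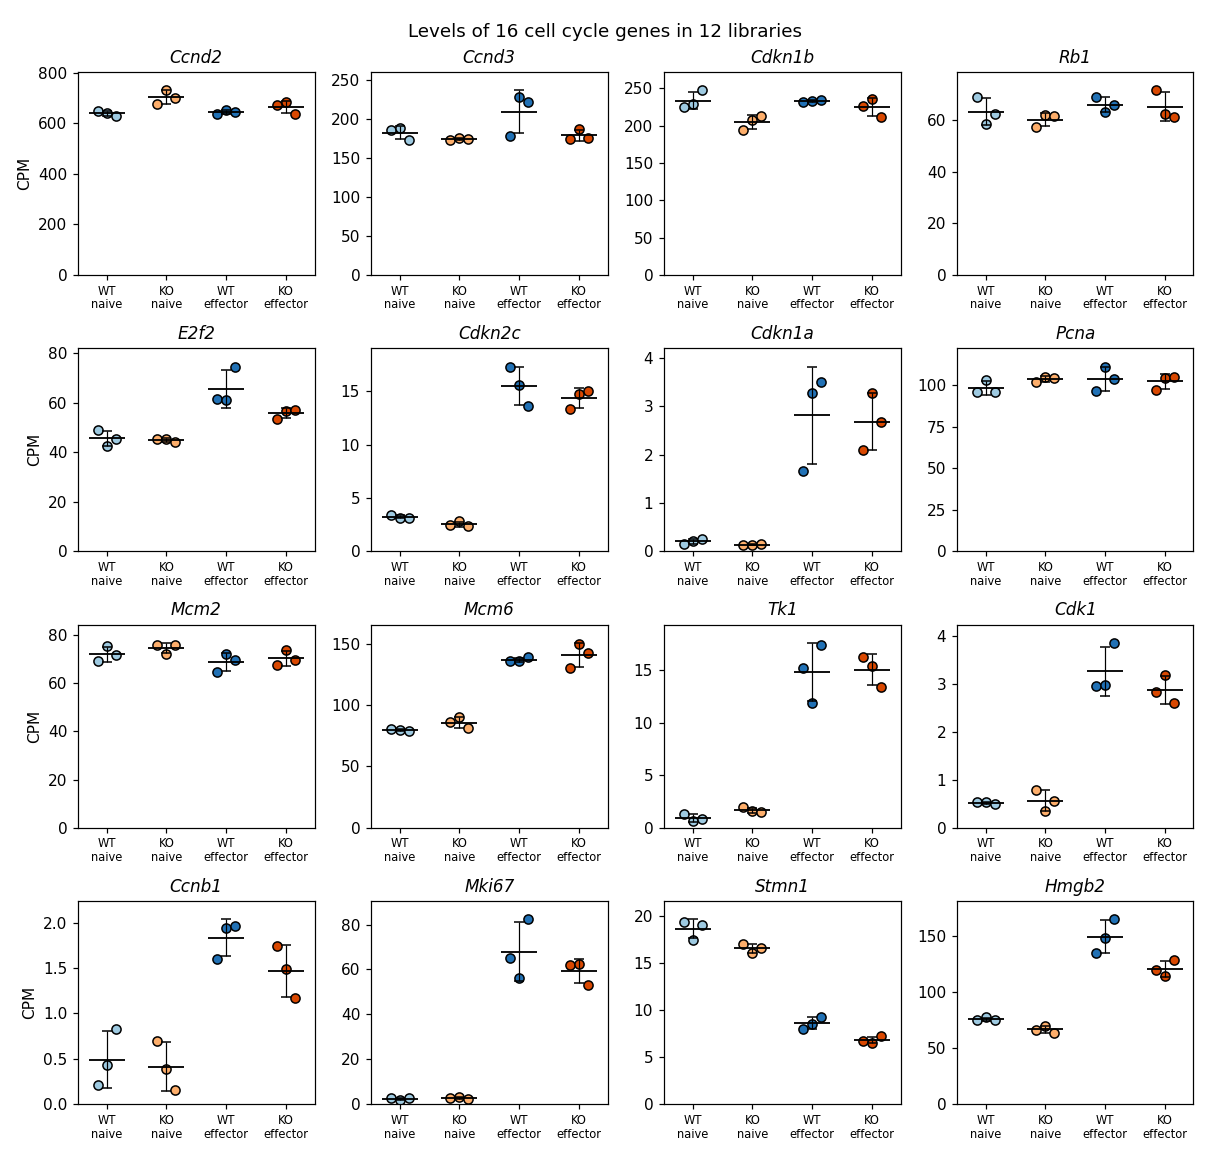
Levels in CPM (vertical axes, starting at 0) of 16 of the genes in each of the 12 libraries, with the group mean as a horizontal line and the SD over 3 libraries as a bar. Ccnd2, Cdkn1b, Rb1, Pcna and Mcm2 sit at similar heights in all 4 groups, while Cdkn2c, Tk1, Cdk1 and Mki67 are far higher in both effector groups.

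Most of the replication machinery was expressed in naive cells at levels close to those of effector cells. The 6 MCM genes, which encode the subunits of the replicative helicase loaded at origins, had group means of 10.7 to 26.9 FPKM in WT naive and 14.0 to 31.1 FPKM in WT effector cells, on the deposited scale, which corrects for gene length and library size. Mcm6 (chr1:128331590-128359664, minus strand; its promoter is printed above) moved most of the 6 and stood at 80.5, 79.9 and 78.6 CPM in the WT naive libraries, 85.8, 90.1 and 81.0 in KO naive, 136, 136 and 139 in WT effector and 130.4, 149 and 142 in KO effector. All effector libraries were above all naive ones, with a log2 difference of 0.78 ± 0.052 in WT and 0.72 ± 0.051 in KO (edgeR adjusted p = 5.49e-12 and 1.4e-11). Mcm5 stood at 37.9, 38.3 and 35.2 CPM in the WT naive libraries, 37.8, 37.0 and 40.2 in KO naive, 47.8, 50.5 and 48.0 in WT effector and 45.5, 50.6 and 47.2 in KO effector. It too separated the cell types without overlap, by 0.39 ± 0.061 on the log2 scale in WT and 0.32 ± 0.059 in KO (edgeR adjusted p = 8.67e-06 and 5.87e-05). Mcm2 stood at 69.0, 75.3 and 71.7 CPM in the WT naive libraries, 75.6, 72.1 and 75.9 in KO naive, 64.7, 72.2 and 69.7 in WT effector and 67.6, 73.8 and 69.4 in KO effector. Its groups overlapped, with differences of -0.07 ± 0.055 in WT and -0.08 ± 0.053 in KO (edgeR adjusted p = 0.319 and 0.191).

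The other helicase genes were flat or slightly lower in effector cells. Mcm3 differed by 0.05 ± 0.067 on the log2 scale in WT and did not pass. Mcm7 was lower in effector cells by -0.26 ± 0.049 in WT and -0.26 ± 0.048 in KO (edgeR adjusted p = 8.24e-05 and 6.14e-05); it hosts the microRNAs Mir25, Mir93 and Mir106b and overlaps Cops6 and Ap4m1 on the opposite strand. Mcm4 was called lower by -0.11 ± 0.048 in WT (edgeR adjusted p = 0.0488), a call lost in 6 of the 8 other settings, DESeq2 among them, and without any 1 of WT libraries 1, 2, 3, 5 and 6 or of KO library 9, and by -0.17 ± 0.047 in KO (edgeR adjusted p = 0.00322). Pcna, the sliding clamp of DNA polymerases, stood at 95.9, 103 and 96.1 CPM in the WT naive libraries, 102, 105 and 104 in KO naive, 96.8, 111 and 104 in WT effector and 97.3, 104 and 105 in KO effector. Its groups overlapped, with differences of 0.08 ± 0.052 in WT and -0.02 ± 0.051 in KO (edgeR adjusted p = 0.228 and 0.739). The processed copy Pcna-ps2 held 3157 counts over all libraries beside 21679 for Pcna, so reads shared between the 2 could not be placed with certainty.

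The low-abundance origin factors behaved differently from the helicase. Gins2, a subunit of the GINS complex that joins the MCM ring when origins fire, stood at 0.421, 1.02 and 0.912 CPM in the WT naive libraries, 1.38, 1.28 and 1.28 in KO naive, 3.93, 3.81 and 3.62 in WT effector and 3.65, 3.71 and 4.27 in KO effector. Every effector library was above every naive one, by 2.29 ± 0.25 on the log2 scale in WT and 1.55 ± 0.21 in KO (edgeR adjusted p = 2.29e-08 and 7.93e-07). It lies opposite Gse1, which held 31809 counts beside 492 for Gins2. Cdc6, which loads the MCM ring, and Cdc45, its partner in the active helicase, were called higher in WT effector cells by 1.07 ± 0.37 and 0.74 ± 0.20 and in KO by 1.44 ± 0.39 and 0.52 ± 0.20. The Cdc6 call in WT was lost without library 1 or library 6 and with both FPKM settings, and the Cdc45 call in KO with DESeq2, with both FPKM settings and without library 8, 9 or 11. In all, 5 of the 10 genes of this group were higher and 2 lower in effector cells of each genotype. The shares over all genes tested were 30.2% and 25.9% in WT and 31.6% and 26.8% in KO.

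All 4 genes of nucleotide supply and both fork chromatin genes were called higher in effector cells of both genotypes. Among all genes tested, 30.2% were called higher in WT and 31.6% in KO. Tk1, the thymidine kinase of S phase (chr11:117815526-117826092, minus strand), stood at 1.31, 0.645 and 0.829 CPM in the WT naive libraries, 1.94, 1.62 and 1.49 in KO naive, 15.2, 11.9 and 17.4 in WT effector and 16.3, 15.5 and 13.4 in KO effector. The effector libraries lay far above the naive ones, and the log2 difference was 3.97 ± 0.20 in WT and 3.16 ± 0.17 in KO (edgeR adjusted p = 4.94e-14 and 1.11e-13). Tk1 overlaps Afmid on the opposite strand, which held 2074 counts over all libraries beside 1621 for Tk1. Rrm2, the S phase subunit of ribonucleotide reductase, stood at 3.16, 3.60 and 4.98 CPM in the WT naive libraries, 3.37, 3.87 and 3.28 in KO naive, 10.8, 9.70 and 13.7 in WT effector and 10.1, 9.92 and 9.30 in KO effector. Tyms, thymidylate synthase, stood at 2.21, 2.79 and 3.32 CPM in the WT naive libraries, 2.98, 2.38 and 3.28 in KO naive, 9.28, 8.36 and 8.18 in WT effector and 8.41, 11.3 and 9.21 in KO effector. For both, all effector libraries exceeded all naive ones, Rrm2 by 1.59 ± 0.16 and Tyms by 1.66 ± 0.17 on the log2 scale in WT (edgeR adjusted p = 6.08e-09 and 9.52e-09). Rrm1, the subunit of the same reductase that is made throughout the cycle, rose by only 0.41 ± 0.063 in WT and 0.42 ± 0.061 in KO.

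Hells, a chromatin remodeller needed for DNA methylation (promoter above), stood at 8.68, 7.47 and 9.12 CPM in the WT naive libraries, 7.51, 8.97 and 8.55 in KO naive, 17.4, 16.6 and 18.4 in WT effector and 20.9, 16.8 and 18.2 in KO effector. Uhrf1, which brings the maintenance methyltransferase to new DNA, stood at 3.68, 3.81 and 4.81 CPM in the WT naive libraries, 4.36, 3.70 and 4.51 in KO naive, 11.7, 10.1 and 15.4 in WT effector and 12.7, 12.1 and 13.1 in KO effector. Both separated effector from naive libraries without overlap. The log2 differences were 1.06 ± 0.11 in WT and 1.16 ± 0.10 in KO for Hells, and 1.63 ± 0.15 and 1.59 ± 0.14 for Uhrf1 (edgeR adjusted p at or under 1.2e-08 in all 4 tests).

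Most genes that act in mitosis were scarce in naive cells and rose in effector cells. Of the 24 genes in the 5 mitotic role groups, 21 were higher in WT effector cells and 20 in KO effector cells, beside 30.2% and 31.6% of all genes tested. The median log2 difference of the 24 was 2.16 in WT and 1.77 in KO. Of the 24, 7 passed the filter on low counts only through their effector libraries, where they are high. Among the other 17, 14 were higher in WT and 13 in KO, with medians of 1.25 and 1.18. Per length, the median level of the 24 genes was 0.236 FPKM in WT naive and 1.28 FPKM in WT effector cells, beside 5.78 and 10.3 FPKM for the 26 other genes of the set. Over the 50 genes, 16 were under 1 CPM in WT naive cells and 1 in WT effector cells. Counting noise therefore bears most on the naive levels of this group: 14 of the 50 genes had under 10 counts in at least 1 naive library, and 5 in all 6.

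Cdk1, the kinase that drives mitotic entry (promoter above), stood at 0.526, 0.537 and 0.498 CPM in the WT naive libraries, 0.777, 0.340 and 0.563 in KO naive, 2.95, 2.98 and 3.85 in WT effector and 2.84, 3.18 and 2.60 in KO effector. Its naive libraries never reached 1 CPM and its effector libraries all exceeded 2, a log2 difference of 2.63 ± 0.28 in WT and 2.36 ± 0.26 in KO (edgeR adjusted p = 2.2e-08 and 3.86e-08). Ccnb1, a B-type cyclin that activates CDK1, stood at 0.210, 0.430 and 0.829 CPM in the WT naive libraries, 0.691, 0.383 and 0.154 in KO naive, 1.60, 1.94 and 1.96 in WT effector and 1.74, 1.49 and 1.17 in KO effector. The groups did not overlap between cell types, and the log2 difference was 2.01 ± 0.40 in WT and 1.81 ± 0.39 in KO (edgeR adjusted p = 0.000161 and 0.000327). The pseudogene Ccnb1-ps held 77 counts beside 210 for Ccnb1 over all libraries, so these values are uncertain. Ccnb1 also passed the filter on low counts only through its effector libraries, so its calls carry no separate weight. Ccnb2, the second B-type cyclin, stood at 0.316, 0.322 and 0.580 CPM in the WT naive libraries, 0.432, 0.553 and 0.871 in KO naive, 3.99, 3.36 and 7.47 in WT effector and 4.52, 5.20 and 4.02 in KO effector. WT effector library 6 was well above libraries 4 and 5, and all effector libraries exceeded all naive ones, by 3.68 ± 0.36 in WT and 2.92 ± 0.31 in KO (edgeR adjusted p = 2.45e-08 and 7.29e-08).

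Aurkb, the kinase of the chromosomal passenger complex, stood at 0.263, 0.107 and 0.415 CPM in the WT naive libraries, 0.475, 0.298 and 0.256 in KO naive, 1.72, 2.54 and 2.43 in WT effector and 1.51, 1.69 and 0.838 in KO effector. Effector and naive libraries did not overlap, with differences of 3.15 ± 0.41 in WT and 1.99 ± 0.37 in KO (edgeR adjusted p = 4.13e-07 and 7.33e-05). Ccna2, cyclin A2 of S phase and G2, was called higher by 2.87 ± 0.45 in WT and 2.25 ± 0.40 in KO. Aurkb and Ccna2 passed the filter on low counts only through their effector libraries, so their calls carry no separate weight. The Aurkb values of WT naive cells rest on 5, 2 and 5 counts. The centrosome kinases moved little. Plk1 was called higher in WT by 0.84 ± 0.25 and differed by 0.42 ± 0.24 in KO without passing, and Aurka differed by 0.51 ± 0.22 in WT (edgeR adjusted p = 0.0521) and 0.27 ± 0.21 in KO.

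The 4 genes of the spindle checkpoint and the anaphase-promoting complex were all called higher in effector cells of both genotypes. Among all genes tested, 30.2% were called higher in WT and 31.6% in KO. Ube2c and Bub1 passed the filter on low counts only through their effector libraries, so their calls carry no separate weight. Bub1b, which encodes the checkpoint protein BUBR1, stood at 2.79, 2.69 and 2.24 CPM in the WT naive libraries, 2.07, 1.49 and 1.84 in KO naive, 5.22, 4.48 and 6.29 in WT effector and 4.99, 6.64 and 5.19 in KO effector. The cell types did not overlap, with differences of 1.04 ± 0.19 in WT and 1.65 ± 0.19 in KO (edgeR adjusted p = 4.36e-05 and 4.63e-08). Ube2c, the ubiquitin-conjugating enzyme that works with the anaphase-promoting complex (promoter above), stood at 0.0526, 0 and 0.166 CPM in the WT naive libraries, 0.345, 0.170 and 0.0512 in KO naive, 1.47, 0.373 and 1.19 in WT effector and 1.45, 1.25 and 0.921 in KO effector. Its WT naive values rest on 1, 0 and 2 counts, so no fold is given; a count of 0 in library 2 allows up to 0.161 CPM, and the gene was called higher in both genotypes (edgeR adjusted p = 6.65e-05 and 0.000133). Bub1, the checkpoint kinase, stood at 0.158, 0 and 0.332 CPM in the WT naive libraries, 0.0864, 0.213 and 0.154 in KO naive, 0.983, 1.04 and 1.305 in WT effector and 0.348, 0.578 and 0.586 in KO effector. WT naive library 2 was at 0 with the same limit, and the Bub1 values of WT naive cells rest on 3, 0 and 4 counts. The fitted differences were 2.91 ± 0.54 in WT and 1.68 ± 0.57 in KO (edgeR adjusted p = 7.01e-05 and 0.0149), the KO call being lost without library 7 or 11. Cdc20, the activator of the complex, rose by 0.67 ± 0.17 in WT and 0.69 ± 0.16 in KO.

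Spindle genes split into risers and fallers. Kif11, the motor that pushes spindle poles apart (promoter above), stood at 0.894, 0.967 and 1.24 CPM in the WT naive libraries, 1.12, 0.978 and 1.33 in KO naive, 7.62, 5.60 and 8.36 in WT effector and 6.67, 6.84 and 6.45 in KO effector. Effector libraries lay clear of naive ones, by 2.83 ± 0.21 on the log2 scale in WT and 2.55 ± 0.19 in KO (edgeR adjusted p = 2.4e-11 and 3.4e-11); a gene model on the same strand, Gm8663, overlaps it and held 1876 counts beside 799. Tpx2, which activates Aurora A on the spindle, stood at 0.421, 0.376 and 0.580 CPM in the WT naive libraries, 0.950, 0.638 and 0.563 in KO naive, 3.99, 4.78 and 4.63 in WT effector and 3.36, 3.42 and 3.52 in KO effector. Its differences were 3.31 ± 0.26 in WT and 2.23 ± 0.23 in KO (edgeR adjusted p = 8.1e-11 and 7.57e-09), with no overlap between cell types. Nusap1, Birc5 and Kif20a, which act on spindle microtubules and at the midzone, were also higher, by 3.78 ± 0.46, 1.96 ± 0.28 and 1.25 ± 0.19 in WT. The Nusap1 fold rests on 2, 2 and 3 counts in the WT naive libraries. Nusap1 passed the filter on low counts only through its effector libraries, so its call carries no separate weight.

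Stmn1 was the clearest exception to the rise (chr4:134468320-134473843, plus strand). It stood at 19.4, 17.5 and 19.1 CPM in the WT naive libraries, 17.1, 16.1 and 16.6 in KO naive, 8.05, 8.58 and 9.31 in WT effector and 6.73, 6.55 and 7.20 in KO effector. Every naive library was above every effector library, with a log2 difference of -1.11 ± 0.094 in WT and -1.29 ± 0.096 in KO (edgeR adjusted p = 4.33e-10 and 3.18e-11). Kif23, a motor of the cytokinetic midzone, was lower as well, at 9.58 ± 1.02 CPM in WT naive and 6.83 ± 1.21 in WT effector cells (SD, n = 3), a difference of -0.48 ± 0.15 in WT and -0.50 ± 0.15 in KO (edgeR adjusted p = 0.00883 and 0.00585). The WT call of Kif23 was lost without library 1.

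The 3 centromere genes were called higher in effector cells of both genotypes, beside 30.2% of all genes tested in WT and 31.6% in KO. Cenpe, a kinetochore motor, stood at 1.37, 1.40 and 1.49 CPM in the WT naive libraries, 1.55, 1.74 and 1.95 in KO naive, 6.57, 6.42 and 8.01 in WT effector and 7.60, 6.88 and 6.53 in KO effector. Cenpf, a kinetochore protein that builds up in G2, stood at 0.316, 0.215 and 0.249 CPM in the WT naive libraries, 0.302, 0.213 and 0.307 in KO naive, 2.52, 1.87 and 3.38 in WT effector and 2.09, 2.31 and 2.85 in KO effector. Cenpa, the histone H3 variant that marks centromeres, was the abundant one at 20.3, 19.6 and 20.9 CPM in the WT naive libraries, 16.7, 19.6 and 19.3 in KO naive, 29.5, 27.9 and 29.6 in WT effector and 26.7, 28.3 and 26.1 in KO effector. None of the 3 had an effector library at or below a naive one. Cenpf passed the filter on low counts only through its effector libraries, so its calls carry no separate weight. The log2 differences in WT were 2.31 ± 0.18 for Cenpe, 3.29 ± 0.35 for Cenpf and 0.53 ± 0.076 for Cenpa (edgeR adjusted p = 5.61e-11, 1.75e-08 and 2.43e-06), and in KO 2.01 ± 0.16, 3.10 ± 0.32 and 0.55 ± 0.074.

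All 3 chromosome protein genes were called higher in effector cells of both genotypes, beside 30.2% of all genes tested in WT and 31.6% in KO. Mki67 (chr7:135689784-135716361, minus strand) stood at 2.52, 1.83 and 2.65 CPM in the WT naive libraries, 2.89, 3.02 and 2.31 in KO naive, 65.2, 56.3 and 82.3 in WT effector and 62.0, 62.5 and 53.2 in KO effector. Its level was under 4 CPM in all 6 naive libraries and over 50 in all 6 effector libraries, a log2 difference of 4.89 ± 0.18 in WT and 4.43 ± 0.17 in KO (edgeR adjusted p = 2.31e-11 and 2.23e-11). Top2a, the topoisomerase that untangles sister chromatids (chr11:98992943-99024189, minus strand), stood at 9.63, 6.66 and 8.54 CPM in the WT naive libraries, 8.55, 9.65 and 6.66 in KO naive, 28.7, 30.1 and 34.3 in WT effector and 26.5, 29.5 and 27.4 in KO effector. All effector libraries exceeded all naive ones, by 1.91 ± 0.13 in WT and 1.74 ± 0.12 in KO (edgeR adjusted p = 4.43e-11 and 8.72e-11). Hmgb2, a DNA-bending protein abundant in dividing cells (chr8:57511907-57515999, plus strand), stood at 75.0, 77.4 and 74.7 CPM in the WT naive libraries, 66.5, 69.9 and 63.6 in KO naive, 135, 148 and 165 in WT effector and 119.6, 115 and 128 in KO effector. It was high already in naive cells and rose by 0.98 ± 0.062 in WT and 0.85 ± 0.061 in KO (edgeR adjusted p = 4.19e-12 and 3.73e-11).

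Per length, Ccnd2, Ccnd3, Pcna and Cdkn1b were the 4 genes at the highest level in WT naive cells, and Cenpf was the lowest. In WT naive cells the mean was 94.5 FPKM for Ccnd2, 74.0 for Ccnd3, 64.3 for Pcna and 50.98 for Cdkn1b, while Cenpf was at 0.0231 and Mki67 at 0.230. In WT effector cells Ccnd2 averaged 95.3 FPKM, Ccnd3 85.1, Pcna 67.9, Hmgb2 56.5 and Cdkn1b 50.9, and Mki67 had reached 6.71 and Tk1 10.2. The number of genes over 10 FPKM went from 14 in WT naive to 16 in WT effector cells, and the number under 1 FPKM from 25 to 12.

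**Figure D3:**
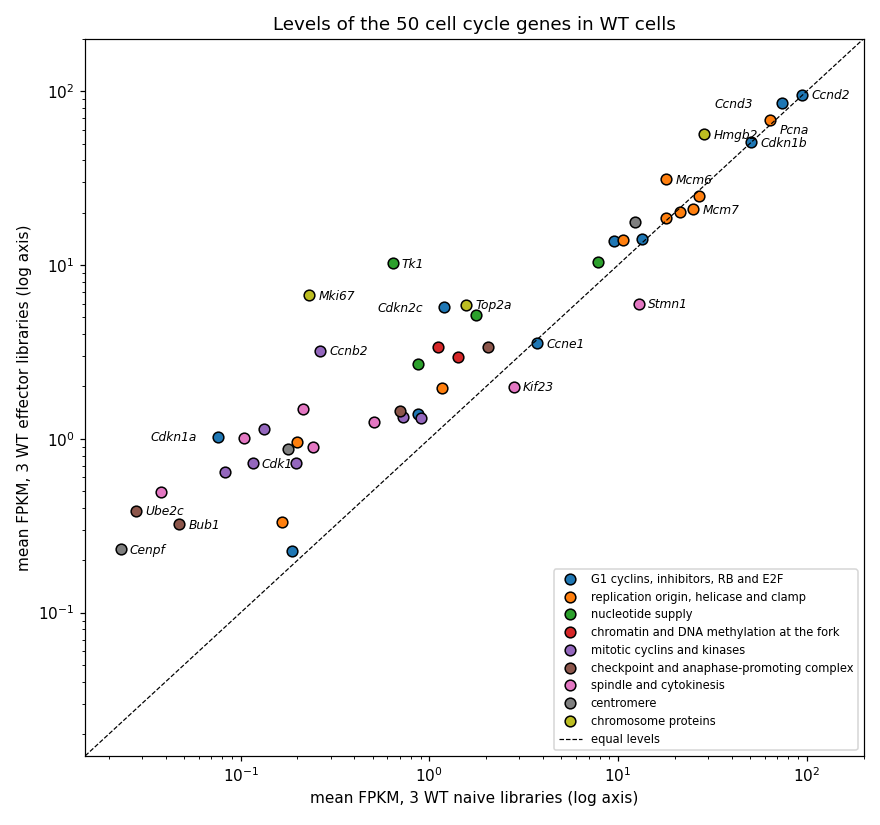
Mean deposited FPKM of each of the 50 genes in the 3 WT naive libraries (horizontal, log axis) against the 3 WT effector libraries (vertical, log axis), coloured by role, with equal levels on the dashed line. Ccnd2, Pcna and Cdkn1b lie on the line at the top right, Mki67 and Tk1 far above it, and Stmn1 and Kif23 below it.

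Markers of other cells also differed between the sorted cell types. Among all genes tested, 30.2% were called higher and 25.9% lower in WT effector cells, and 31.6% and 26.8% in KO effector cells. Summed over its list, the level of 5 regulatory T cell markers was 155 to 168 CPM in WT naive and 1138 to 1336 in WT effector libraries, all 5 being called higher. For 5 markers of NK, NKT and gamma-delta cells the sums were 8.96 to 12.6 and 194 to 196 CPM, with 4 higher and 1 lower. That list held 8 symbols, and only these 5 matched a row by name. For 11 B cell markers the sums were 603 to 625 and 942 to 1118 CPM, mostly Ighm, with 7 of 10 tested genes higher. The 5 germinal centre and follicular helper T cell markers summed to 42.5 to 44.2 CPM in WT naive libraries. In WT effector libraries they summed to 306 to 377 CPM, with 4 of 4 tested genes higher. For 6 plasma cell and plasmablast markers the sums were 16.9 to 18.2 and 103 to 115 CPM, with 3 of 4 tested genes higher. Of 7 tested myeloid markers 2 were higher and 1 lower, and of 5 tested erythroid markers 0 were called. The thymocyte genes Rag1 and Rag2 were at 0 in all libraries. With Dntt and Cd24a added, the list of 4 thymocyte and recent emigrant markers summed to 11.4 to 14.5 CPM in WT naive and 0.799 to 1.79 in WT effector libraries. Of its 2 tested genes, 1 was called lower in effector cells of each genotype, with log2 differences of -6.98 in WT and -6.34 in KO. The part of cells that carry these markers in the cell cycle differences was not tested.

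Loss of Rinl left the cell cycle genes of naive cells without a call. In naive cells 0 of the 50 passed (edgeR), beside 1.18% of all genes tested (0.679% higher and 0.497% lower). Of the 50, 10 had an unadjusted edgeR p under 0.05, 4 of them positive and 6 negative. The share of all genes under that p was not counted, so these 10 have no background to be read against. DESeq2 called 2 genes, Ccnd2 higher and Cdkn1b lower. The median log2 difference, KO minus WT, was 0.04 over the 50 genes and 0 over all genes tested, and 35 of the 50 lay within 0.2 of 0. The smallest p belonged to Cdkn1b: KO naive cells averaged 205 ± 9.41 CPM and WT naive cells 234 ± 11.99 CPM (SD, n = 3), with no overlap and a log2 difference of -0.19 ± 0.049 (edgeR adjusted p = 0.0616). Cdkn1b passed with DESeq2 (adjusted p = 0.0444), with no filter on low counts, with naive libraries alone (adjusted p = 0.0132) and without library 11 or 12.

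Ccnd2, the most abundant of the cyclins, averaged 702 ± 27.0 CPM in KO and 639 ± 9.40 CPM in WT naive cells, again without overlap, a difference of 0.13 ± 0.043 (edgeR adjusted p = 0.154, DESeq2 0.0385). Tk1 was at 1.68 ± 0.236 CPM in KO naive and 0.930 ± 0.346 CPM in WT naive cells, and Gins2 at 1.31 ± 0.0599 and 0.784 ± 0.320 CPM. Their log2 differences of 0.83 ± 0.28 and 0.77 ± 0.28 did not pass (edgeR adjusted p = 0.178 and 0.217). In naive cells 6 of the 50 genes had all KO libraries above all WT libraries and 8 had all below, beside 10.7% and 9.72% of all genes (20.5% either way).

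In effector cells Hmgb2 was the single gene called, lower in KO, out of 50. Among all genes tested 1.72% were called lower, 1.45% higher and 3.16% in either direction. Hmgb2 averaged 121 ± 6.95 CPM in KO and 149 ± 14.8 CPM in WT effector cells (SD, n = 3), with every KO library below every WT library. The log2 difference was -0.31 ± 0.06 (edgeR adjusted p = 0.00467). Without WT library 6, the highest, it was -0.23 (edgeR adjusted p = 0.0448), and in limma on log2(FPKM + 1) it was -0.29 and missed the threshold (adjusted p = 0.0504; with a pseudocount of 0.1, 0.0678). In naive cells the same gene differed by -0.18 ± 0.063 without passing (edgeR adjusted p = 0.196; with naive libraries alone it passed, 0.0248), with KO libraries again all below WT.

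The genes next in order did not pass. E2f2 averaged 55.7 ± 2.03 CPM in KO and 65.7 ± 7.64 CPM in WT effector cells with no overlap, a difference of -0.24 ± 0.068 (edgeR adjusted p = 0.0539), and it passed without library 1, 2, 4 or 5 and with no filter on low counts. Stmn1 averaged 6.83 ± 0.339 and 8.65 ± 0.634 CPM, also with no overlap, a difference of -0.35 ± 0.11 (edgeR adjusted p = 0.0798), and it passed in limma on FPKM. Ccnd3 differed by -0.23 ± 0.069 and the helicase gene Mcm3 by -0.22 ± 0.068 (edgeR adjusted p = 0.0865 and 0.0809). Both passed without library 4 and with no filter on low counts, and DESeq2 called Ccnd3 lower (adjusted p = 0.0427). The checkpoint kinase Bub1 had the largest difference in size, -1.14 ± 0.42, at levels of about 1 CPM and below, and did not pass (edgeR adjusted p = 0.156).

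In effector cells 10 of the 50 genes had an unadjusted edgeR p under 0.05, 1 positive (Ccne2, 0.83 ± 0.33) and 9 negative. The share of all genes tested under that p was not counted, so this count has no background to be read against. The median log2 difference over the 50 genes was -0.12, beside 0.0022 over all genes tested. KO libraries lay all above WT libraries for 1 gene and all below for 9, beside 9.18% and 8.73% of all genes (17.9% either way). Among the 15 genes over 10 CPM in both WT groups, the largest difference in size was 0.31 in effector and 0.19 in naive cells. Pcna differed by -0.02 ± 0.052, Mcm2 by 0.03 ± 0.055, Mcm6 by 0.04 ± 0.051 and Rb1 by -0.02 ± 0.066, and none of these passed.

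Of the 24 mitotic genes, 21 had a fitted difference below 0 in effector cells, with a median of -0.16, and 7 had one below 0 in naive cells, with a median of 0.12. Over all genes tested, 50.7% of the differences were positive in effector and 49.9% in naive cells. WT effector library 6 was the highest of its group in 18 of these 24 genes, library 5 in 5 and library 4 in 1. Without library 6, 17 of 24 lay below 0 and the median was -0.07. Mki67 moved from -0.20 ± 0.11 with all libraries (edgeR adjusted p = 0.45) to -0.03 without library 6, and Top2a from -0.16 ± 0.11 (edgeR adjusted p = 0.518) to -0.08. These 24 genes come from the same libraries and are not 24 separate observations.

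**Figure D4:**
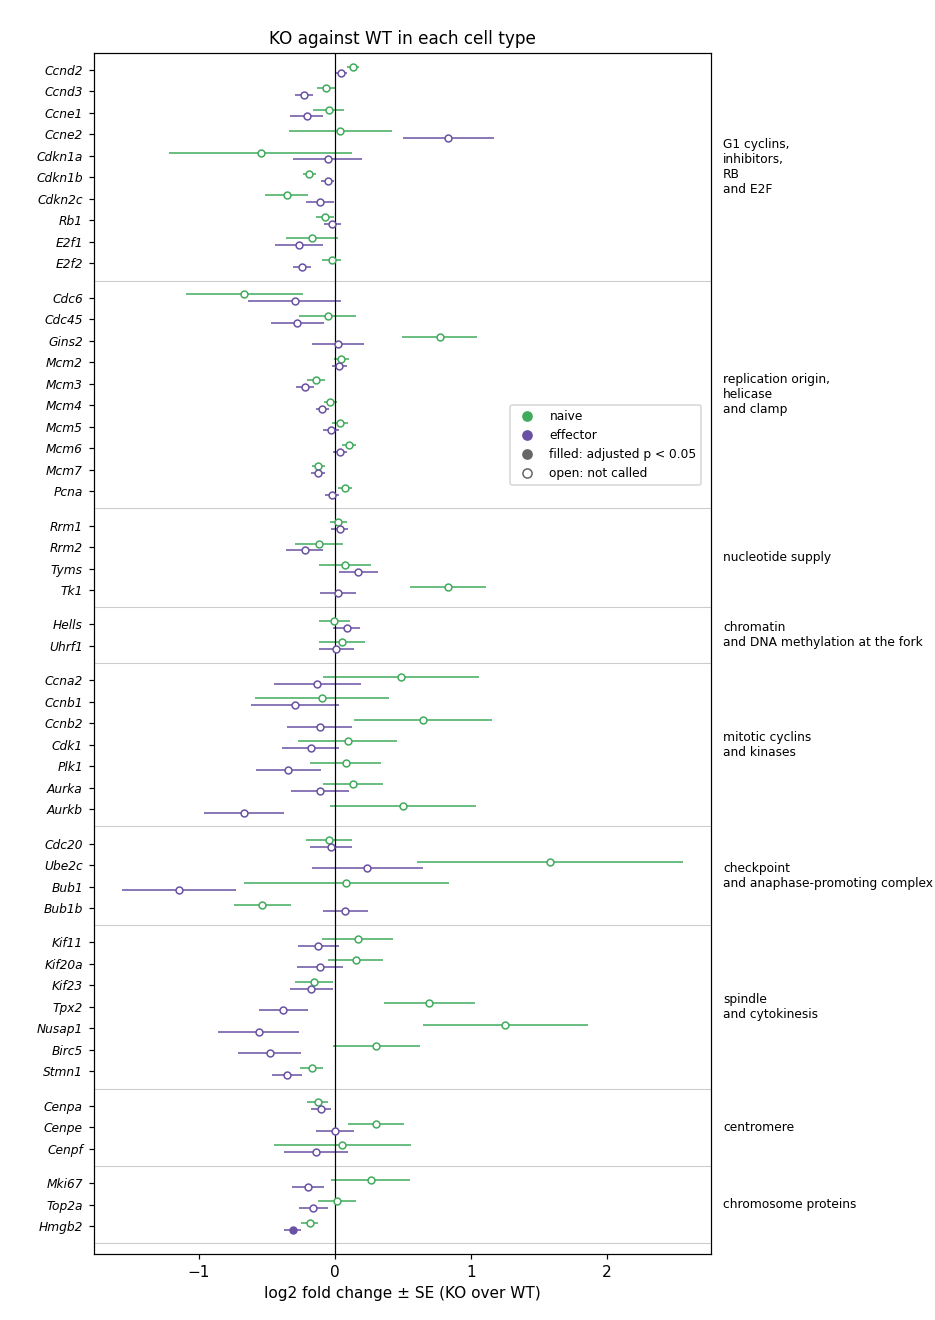
Log2 fold change of KO over WT for each of the 50 cell cycle genes (horizontal axis, with its SE as a bar) in naive (green) and effector (purple) cells, grouped by role. The single filled point, past the edgeR test, is Hmgb2 in effector cells, and the genes with wide bars are those at low counts.

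Transcripts that mark other cell types differed between the genotypes in effector cells, where 1.72% of all genes tested were called lower and 1.45% higher in KO. Summed over the 5 markers of NK, NKT and gamma-delta cells, the level was 194 to 196 CPM in WT and 121 to 160.1 in KO effector libraries, and 3 of 5 were called lower (Klrb1c, Klrk1 and Zbtb16). The regulatory T cell markers summed to 1138 to 1336 CPM in WT and 1348 to 1587 in KO effector libraries, with 2 of 5 (Foxp3 and Ctla4) called higher. Their part in the difference of Hmgb2 was not tested.

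Whether loss of Rinl acted differently in the 2 cell types was tested as the difference of the KO effects, effector minus naive. It was called for 0 of the 50 genes (edgeR), beside 0.145% of all genes tested (0.0189% higher and 0.126% lower), and DESeq2 called 0 as well. Of the 50, 6 had an unadjusted edgeR p under 0.05, 1 positive and 5 negative. The share of all genes under that p was not counted, so these 6 have no background to be read against. The smallest p belonged to Tpx2, whose KO effect was 0.70 ± 0.33 in naive and -0.38 ± 0.18 in effector cells, a difference of -1.07 ± 0.38 (edgeR adjusted p = 0.342). For Tk1 the KO effects were 0.83 ± 0.28 and 0.02 ± 0.13, and for Hmgb2 -0.18 ± 0.063 and -0.31 ± 0.06, a difference of -0.13 ± 0.087 (edgeR adjusted p = 0.698).

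A wider list of 138 other cell cycle symbols was examined beside the 50. Of its 131 genes tested, 65 were higher and 25 lower in WT effector cells, and 60 and 22 in KO effector cells, with median log2 differences of 0.30 and 0.25 (1.05 and 1.15 over the 50 genes). Over all genes tested, 30.2% were higher and 25.9% lower in WT, and 31.6% and 26.8% in KO. The 54 tested mitosis genes gave 37 higher, among them Racgap1, a regulator of cytokinesis (2.36), and Prc1, which bundles midzone microtubules (2.86), and 4 lower, among them the condensin gene Smc4 (-0.71). The 43 replication genes had a median of 0.00064 in WT, with 15 higher, such as the fork checkpoint gene Clspn (3.82), and 9 lower, such as Timeless (-1.15) and the polymerase epsilon subunit gene Pole2 (-2.12). The 18 other G1 genes gave 9 higher, such as the pocket protein gene Rbl2 (1.26) and E2f3 (1.49), and 6 lower, such as the inhibitor gene Cdkn2d (-0.84) and Myc (-0.55). Of 16 genes of the G0 complex and of antiproliferative factors, 4 were higher and 6 lower, with Foxo1 at -0.92 and Btg1 at -0.47.

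Between KO and WT, 0 of these 131 genes passed in naive cells (edgeR) and 2 in effector cells, both lower in KO, where 1.72% of all genes tested were called lower; 2 of 131 is near that share. Racgap1 averaged 33.7 ± 1.47 CPM in KO and 41.7 ± 3.00 CPM in WT effector cells (SD, n = 3), a log2 difference of -0.31 ± 0.073 (edgeR adjusted p = 0.0197). Pdcd4, which encodes an inhibitor of translation, averaged 329 ± 10.6 and 374 ± 18.1 CPM, a difference of -0.18 ± 0.046 (edgeR adjusted p = 0.0283). Both had all KO effector libraries below all WT effector libraries.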

How the data were processed

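Bulk RNA-seq of 12 libraries in 4 groups of 3 was deposited as 2 tables. The raw read counts per gene are as the authors deposited them, per the file headers, and the FPKM values (fragments scaled to gene length and library size) were computed by the authors and deposited beside them. The submitters' processing notes name STAR, Picard, DESeq2 1.30.0, mm10 and GRCm38. The counting tool and its strand setting are not stated in the sources, so reads of overlapping genes may be shared, although the library kit marks strand per the labels. Opposite-strand genes with more counts overlap, among others, Ccne2 (Ints8, 10898 counts beside 171), Cdc45 (Ufd1, 12795 beside 664) and Ccna2 (Exosc9, 6306 beside 266). The same holds for Cdc20 (Elovl1, 14367 beside 1008) and Kif20a (Cdc23, 15710 beside 731). Columns name the group and a running number, not the replicate number of the labels, so they were assigned to groups only. Gene positions are those written in the deposited count table, taken as GRCm38.

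Counts were filtered with filterByExpr (minimum count 10), which kept 15905 of 55487 genes, scaled by TMM and tested with the quasi-likelihood test of edgeR 4.0.16 in R 4.3.3, 1 fit over the 4 groups, with Benjamini-Hochberg adjustment over all genes tested and a threshold of 0.05. The biological coefficient of variation was 5.21%. Data were simulated for KO against WT in naive cells on 15717 genes. The genes given a change were drawn only from those with a mean of at least 5 CPM. The test recovered 82% of 100 genes given a log2 change of 0.5 and 96% of 100 given 1, with 5 false calls. Recovery was not split by level, and only 26 of the cell cycle genes reached a mean of at least 5 CPM. These shares therefore do not give the recovery of the scarcer cell cycle genes, many mitotic genes among them. Alternatives were DESeq2 1.42.0, edgeR with DESeq2 size factors, limma-voom (limma 3.58.1), limma on log2 of FPKM plus 1 or 0.1, no filter, a mean of at least 5 CPM, the compared groups alone, and each library left out.

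The genes and lists were chosen with earlier results of these data known. Every library's value is given for genes called between KO and WT, for the 3 genes of each role group with the smallest p for effector against naive cells in WT, and for Mki67, Top2a, Ccnb1, Cdk1, Pcna, Mcm2, Ccnd2, Ccnd3, Cdkn1a, Cdkn1b, Cdkn2c, Rb1 and E2f2. The other genes are given by mean, difference or count. From the wider cell cycle lists, up to 3 called genes per list and direction were eligible to be named. Promoters are RefSeq's, on GRCm38.p6.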

Additional observations from a re-analysis of the deposited data

How the results depend on the processing

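Each result was recomputed under up to 8 other settings and with each of the 12 libraries left out. Among the 50 genes, KO against WT in naive cells gave 0 higher and 0 lower; DESeq2 gave 1 and 1, no filter on low counts 1 and 1, and a fit of the compared groups only gave 2 lower (Cdkn1b and Hmgb2). With a library left out the lower count ranged from 0 to 1 and the higher count was 0. KO against WT in effector cells gave 1 lower; DESeq2 gave 2, no filter 4, and leaving out a library from 1 to 4. The Hmgb2 call held in all 12 of the left-out fits, with a log2 difference from -0.38 to -0.23, and in 6 of the 8 other settings. Effector against naive cells gave 37 higher in WT, from 35 to 38 with a library left out, and 15 with a mean of at least 5 CPM, where fewer of the 50 genes were tested; in KO these were 37, from 34 to 38, and 15. The lower counts ranged from 2 to 4 in WT and from 4 to 5 in KO with a library left out, and the difference of the KO effects stayed at 0. Of the values of the genes named, 3152 kept their side of the threshold, 19 gained a call, 13 lost one and 0 reversed. The cause of these changes was not tested.

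Over all genes tested, KO against WT gave 187 calls in naive cells, 501 with no filter, 528 in the compared groups only, and 40 and 57 with FPKM plus 1 and plus 0.1; in effector cells these were 503, 959, 230, 262 and 139. The difference of the KO effects was called for 23 of all genes, for 61 with DESeq2, 277 with no filter, and 13 and 8 with FPKM plus 1 and plus 0.1. With a library left out, these all-gene counts ranged from 66 (without library 8) to 255 (without 11) in naive cells, from 194 (without 11) to 662 (without 4) in effector cells, and from 10 (without 8) to 85 (without 4) for the difference. They moved by over 1.5 times without library 2, 7, 8 or 9 in naive cells, without 5, 6 or 11 in effector cells, and without 2, 4, 6, 7, 8, 9, 10 or 12 for the difference. No paired analysis was possible because the columns do not carry the replicate numbers of the labels. Low counts limit the mitotic genes in naive cells, where 5 of the 50 genes had under 10 counts in all libraries.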
